A study of Mus musculus with 9 samples.

Results

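The 36 genes described here encode lysosomal hydrolases, lysosomal membrane proteins and their transcriptional regulators, without the cathepsins. They were taken by symbol from the 47729 gene identifiers of each count file, and all 36 were found. After the filter on low counts 35 of them were among the 13223 genes tested, and Mcoln3 was not. The 9 RNA-seq libraries came from peritoneal macrophages isolated by FACS. Every mouse carried Cx3cr1CreERT2-IRES-EYFP/+ and Rosa26-stopfl-tdTomato/+, in which a tamoxifen-dependent Cre made from the Cx3cr1 locus can switch on a red reporter, so that marking is limited to cells with an active Cx3cr1 locus while tamoxifen is given. Every mouse, resident group included, also received IL-4 complexes (5 µg IL-4 bound to 25 µg anti-IL4) by the peritoneal route on alternate days, starting 4 days ahead of harvest. The 3 monocyte-derived libraries are from mice given 2 ml of thioglycollate and harvested on day 4. The 3 converted libraries are from mice given 2 ml of thioglycollate and then a tamoxifen diet lasting 10 weeks. The 3 resident libraries have no further treatment in the labels. Age and sex are not in the labels, and nothing in them ties the replicate numbers to separate mice, so the p-values measure the spread between libraries, which may be technical.

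Lysosomes are acid compartments in which macrophages break down what they engulf, what autophagy delivers and their own worn membranes. Hydrolases do the cutting, activator proteins lift lipids out of membranes for them, membrane glycoproteins line the compartment, and transporters and channels return sugars, amino acids, cholesterol and calcium to the cytosol. The transcription factors TFEB, TFE3 and MITF of the MiT family drive many of these genes together through the CLEAR element, a promoter motif built around the E-box CACGTG, and mTORC1 on the lysosomal surface holds them in the cytosol while nutrients are plentiful.

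Because 3 MiT factors are themselves among the 36 genes, the E-boxes in the promoters of the other members are shown first. RefSeq promoters (GRCm38.p6, 300 bases, from 250 before to 50 after the start site) were matched by symbol for 33 of the 36 members. The E-box CACGTG, which reads the same on both strands, was present in 10 of these 33 members (30.3%) and in 8.09% of all 27025 genes in the same table. The longer core TCACGTGA, which contains the E-box, was in 3 members (9.09%), Cln3, Gla and Mcoln1, and in 1.12% of all genes. Each sequence below is the stretch around a match, 5′ to 3′ on the strand of the gene, with the E-box in capitals. Where a member had several matches further apart, the match holding the longer core nearest the start site is shown.
Lamp1, chr8:13159088-13159163, plus strand: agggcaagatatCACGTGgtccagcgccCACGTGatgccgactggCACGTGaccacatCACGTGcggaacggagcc
Gaa, chr11:119267811-119267840, plus strand: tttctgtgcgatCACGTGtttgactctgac
Gla, chrX:134601182-134601211, minus strand: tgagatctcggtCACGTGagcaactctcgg
Glb1, chr9:114401018-114401047, plus strand: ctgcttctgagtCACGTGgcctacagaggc
Naglu, chr11:101070009-101070038, plus strand: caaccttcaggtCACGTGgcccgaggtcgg
Sgsh, chr11:119355522-119355551, minus strand: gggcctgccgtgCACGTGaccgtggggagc
Arsa, chr15:89477423-89477452, minus strand: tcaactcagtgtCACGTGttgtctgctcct
Cln3, chr7:126583340-126583369, minus strand: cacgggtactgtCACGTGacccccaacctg
Mcoln1, chr8:3500462-3500491, plus strand: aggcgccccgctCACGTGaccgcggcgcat
Mcoln2, chr3:146150090-146150119, plus strand: tccctgagctcaCACGTGgaccccattctg

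Lamp1 held 4 copies of the E-box within 76 bases, starting between 61 and 15 bases ahead of its start site. In the GENCODE M21 annotation the Gaa and Glb1 stretches lie outside any gene, and the Lamp1 stretch does so up to its last 3 bases, which are the first bases of the gene. The stretches of Naglu, Sgsh, Cln3 and Mcoln1 reach into or lie in the annotated 5′ UTR of an isoform of the same gene, that of Arsa lies in a gene on the opposite strand, C230037L18Rik, and its last 3 bases in its own UTR, that of Mcoln2 lies in its own gene outside any UTR, and that of Gla lies in the UTR of its divergent neighbour Hnrnph2. A match is a run of letters and not a binding site. The 10 members with an E-box were called in both directions. Converted against monocyte-derived libraries, 3 were called higher (Gaa, Glb1, Sgsh) and 3 lower (Cln3, Mcoln1, Mcoln2). Of the 22 tested members with a promoter in the table and no E-box, 6 were higher and 8 lower. Resident against monocyte-derived libraries, 4 with an E-box were higher (the same 3 and Naglu) and the same 3 lower, beside 6 and 8 without. Of all genes tested, 25.8 and 25.7% were called higher in the 2 comparisons and 24.9% lower in each. A difference from these shares was not tested.

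**Figure D1:**
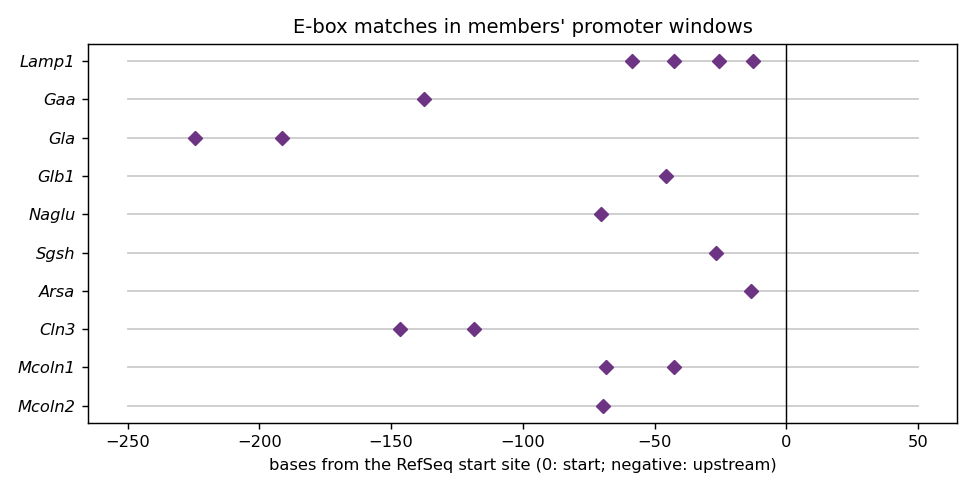
Position of each E-box match in the promoter windows of the 10 members that hold one. The x axis is the distance in bases from the RefSeq start site (0), the grey line is the 300-base window and each diamond is 1 match; Lamp1 has 4 matches, the last of them 15 bases ahead of the start.

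Levels were measured as CPM, read counts scaled to a common depth on library sizes from the TMM method, and each list of values runs in the order of replicate numbers 1 to 3. Each library held 15220884 to 20496258 reads in genes, of which 222990 to 384938 fell on the 36 members. Differences were tested with edgeR's quasi-likelihood F-test in 1 fit of all 9 libraries, and a gene was called where its p, adjusted by Benjamini-Hochberg over the 13223 genes tested, was under 0.05. Of all genes tested, 50.7% were called between converted and monocyte-derived libraries, 50.7% between resident and monocyte-derived, and 6.07% between converted and resident. Of the 35 members tested, 22 were called in the first comparison, 10 higher and 12 lower in converted libraries, and 23 in the second, 10 higher and 13 lower in resident libraries. Only Mcoln2 was called in the third. The members' shares were thus 62.9%, 65.7% and 2.86%, and a difference from those of all genes was not tested. Higher calls made up 25.8, 25.7 and 1.82% of all genes, lower calls 24.9, 24.9 and 4.26%, and calls of at least 2-fold 24.6, 24.3 and 3.43%, the last beside 7, 7 and 1 of the members. Libraries of the 2 groups did not overlap for 22, 25 and 12 members and for 56.3, 59.5 and 37.3% of all genes. In fits of 2 groups alone, 19, 19 and 4 members and 43.7, 47.2 and 16.2% of all genes were called. The median log2 change of the members was -0.26, -0.26 and -0.01, and that of all genes tested -0.01, 0.00 and 0.01. The first 2 comparisons share the monocyte-derived libraries, so their values are given side by side and not as support for each other.

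The groups also differed in markers of cell type and sex. All 7 macrophage markers were present in every group, with a summed level of 3770 to 6366 CPM in monocyte-derived libraries, 6288 to 7776 in converted and 6598 to 6914 in resident ones. These 7 did not move together. Against monocyte-derived libraries, Adgre1 (means of 343, 3077 and 2978 CPM), Itgam and Mertk were called higher in both other groups. Lyz2 (1837, 576 and 437 CPM) and Fcgr1 (15.9, 0.467 and 0.538 CPM) were called lower in both, and Csf1r and Cd68 in neither. The 5 markers of large cavity macrophages summed to 41.7 to 77.2, 2038 to 2600 and 2207 to 2312 CPM, and the 4 of recruited monocytes to 594 to 1577, 250.04 to 307 and 250.5 to 287 CPM. B cell transcripts (10 of 10 markers detected in each group) summed to 33.4 to 79.6, 77.4 to 185 and 1145 to 1485 CPM, while the 4 eosinophil markers summed to 1.27 to 2.53, 2.26 to 2.99 and 10.9 to 16.2 CPM, with Prg2 and Epx at 0 in all libraries and Il5ra making up most of the sum in resident ones. Xist was at 41.0 to 101 CPM in monocyte-derived libraries, with no read of the Y-linked Ddx3y and Eif2s3y, and at most at 0.0979 CPM in the others. The members Lamp2, Gla, Ids and Tfe3 are on the X chromosome. Sex and thioglycollate 4 days before harvest therefore cannot be told apart from the step between monocyte-derived and resident cells, nor sex, time since thioglycollate and tamoxifen from that between monocyte-derived and converted cells. Between converted and resident libraries, thioglycollate and tamoxifen, both given to the converted group alone, cannot be told apart from the cells' history. In bulk RNA fewer cells of a type cannot be told apart from less RNA per cell.

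Counted together, the members were most abundant in monocyte-derived libraries and most uneven there. Their summed level was 13533, 22254 and 16182 CPM in monocyte-derived libraries, 12316, 12359 and 12692 in converted and 12305, 11695 and 12103 in resident ones. A single gene, Psap, made up 51.3, 53.9 and 42.5% of this sum in monocyte-derived libraries, 33.6, 38.1 and 34.9% in converted and 36.3, 35.5 and 36.1% in resident. Without Psap the 3 groups overlapped: the sum was 6592, 10262 and 9308 CPM in monocyte-derived libraries, 7654 to 8264 in converted and 7539.8 to 7839.6 in resident ones. Sums over chosen genes were not tested. Per kilobase of exon (RPKM), the scale for comparing genes with each other, Psap, Lamp1 and Hexa held the first 3 places in every group, and Mcoln3 the last. The place that changed most was that of Cd63, which was 6th of 36 in monocyte-derived libraries, 34th in converted and 33rd in resident ones.

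**Figure D2:**
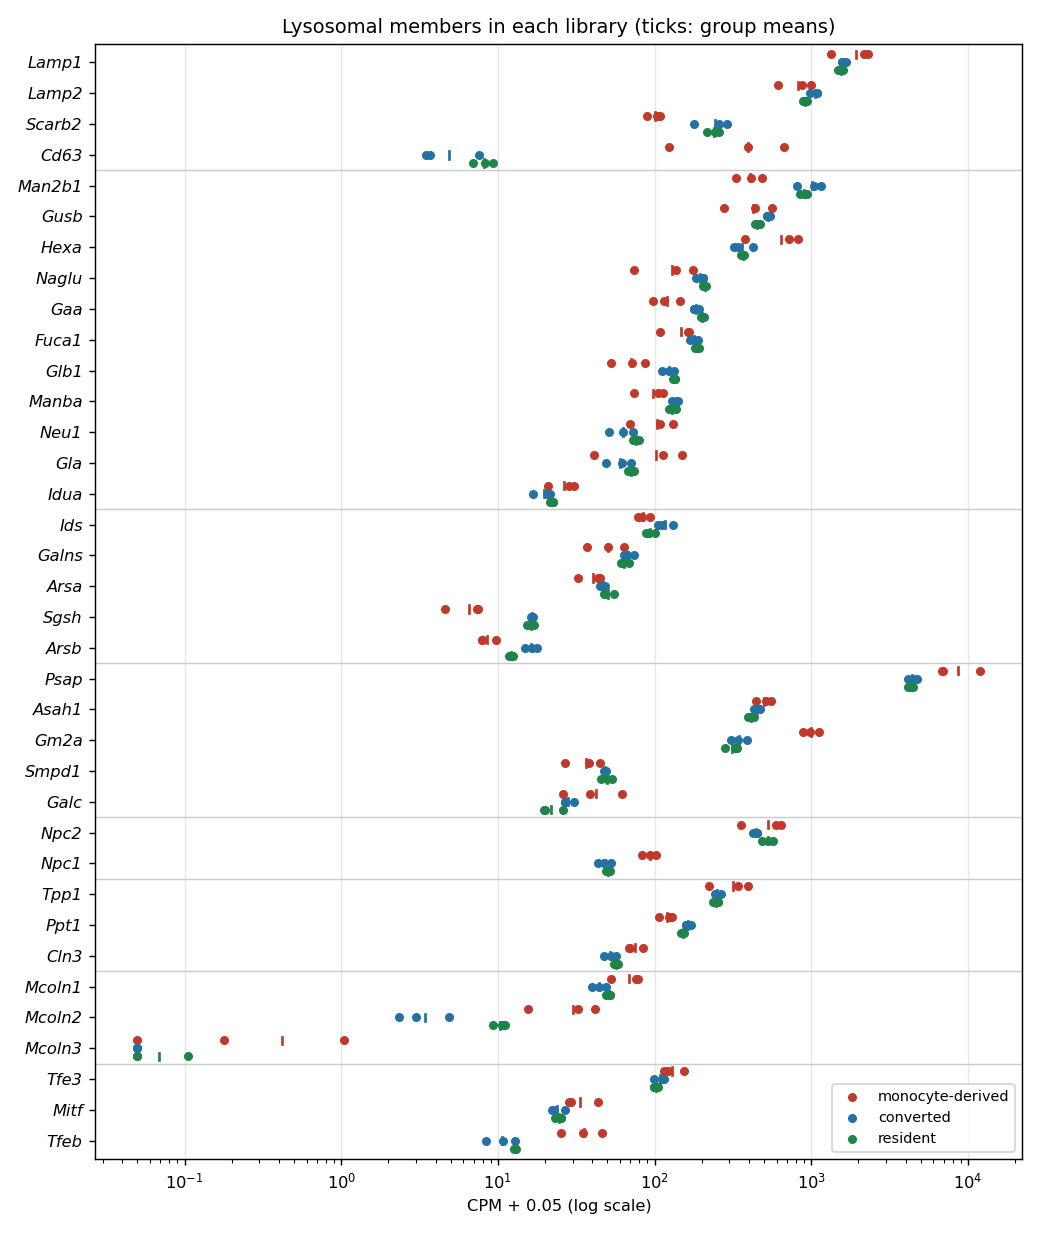
Level of each of the 36 members in each library, in CPM plus 0.05 on a log axis, with red for monocyte-derived, blue for converted and green for resident libraries, ticks for group means and lines between roles. Cd63 spans 3.44 CPM in a converted library to 668 CPM in a monocyte-derived one, while for Psap the converted and resident libraries all lie between 4134 and 4705 CPM.

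The membrane proteins moved in different directions. LAMP1 and LAMP2 are the heavily glycosylated proteins that coat the inner face of the lysosome, SCARB2 (LIMP-2) carries glucocerebrosidase there, and CD63 is a tetraspanin of late endosomes and of the vesicles they release. Cd63 (chr10:128900989-128912822 in GENCODE M21 on GRCm38, as for all gene positions here) was at 122.9, 668 and 394 CPM in monocyte-derived libraries, 3.44, 3.62 and 7.48 in converted and 9.24, 6.92 and 8.22 in resident. All 6 converted and resident values lay far under the lowest monocyte-derived library. The log2 change was -6.36 ± 0.64 (SE, 81.9-fold lower, edgeR adjusted p = 3.62e-05) in converted and -5.60 ± 0.61 (48.5-fold lower, adjusted p = 5.99e-05) in resident cells. It was the largest change of any member, and its size depends in part on monocyte-derived library 2: without that library the log2 changes were -5.74 and -4.97, both still called.

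Scarb2 (chr5:92441314-92506833) went the other way, from 89.8, 108 and 104 CPM in monocyte-derived libraries to 179, 288 and 259 in converted and 243, 217 and 256 in resident. No converted or resident library overlapped a monocyte-derived one, and the rise was 2.41-fold (log2 1.27 ± 0.16, edgeR adjusted p = 0.00013) in converted and 2.37-fold (1.25 ± 0.16, adjusted p = 0.000147) in resident cells. Lamp1, the most abundant of these genes, was at 1332, 2291 and 2167 CPM in monocyte-derived libraries, 1663, 1570.1 and 1566 in converted and 1597, 1485 and 1547 in resident ones. Monocyte-derived library 1 lay under all 6 of the others and libraries 2 and 3 above them, and neither difference passed the test (log2 -0.27 ± 0.17 and -0.32 ± 0.17, edgeR adjusted p = 0.213 and 0.143). Without monocyte-derived library 1 both were called, with log2 changes of -0.48 and -0.53 (adjusted p = 0.000173 and 8.39e-05). Of the exon bases of Lamp1, 9.31% are shared with Grtp1 on the opposite strand, and the strand setting of the counting is not given in the sources used here. Lamp2, at 613 to 996 CPM in monocyte-derived libraries, 986 to 1092 in converted and 882 to 942 in resident ones, was not called, except in converted libraries once monocyte-derived library 2 was left out (adjusted p = 0.0117).

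The glycosidases, 11 enzymes that trim sugars from glycoproteins, glycolipids, glycogen and glycosaminoglycans, were split. In converted libraries 4 were called higher (Gaa, Glb1, Manba, Man2b1), 3 lower (Hexa, Idua, Neu1) and 4 neither. In resident libraries 5 were higher (the same 4 and Naglu), 1 lower (Hexa) and 5 neither. Man2b1 (chr8:85083270-85098282) encodes a lysosomal alpha-mannosidase that dismantles N-glycans. Of the 11 it had the highest CPM in converted and resident libraries, and Hexa had the highest in monocyte-derived ones. Per kilobase Hexa led in all groups, with a mean RPKM of 319.6, 181.5 and 182.5 against 51.0, 125.2 and 112.1 for Man2b1. Man2b1 was at 332, 410.5 and 485 CPM in monocyte-derived libraries, 1037, 816 and 1161 in converted and 846, 937 and 917 in resident ones. Every converted and resident library was above every monocyte-derived one. The rise was 2.46-fold (log2 1.30 ± 0.16, edgeR adjusted p = 9.73e-05) and 2.20-fold (1.14 ± 0.16, adjusted p = 0.000222), the only glycosidase change of at least 2-fold.

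Smaller rises without overlap between libraries were seen for Glb1, the beta-galactosidase of GM1 ganglioside and keratan sulfate, at 52.9 to 86.9 CPM in monocyte-derived libraries, 112 to 134 in converted and 131 to 136 in resident ones (1.75-fold and 1.90-fold, edgeR adjusted p = 0.00159 and 0.0007). Gaa, which degrades glycogen, was at 97.4 to 146, 179 to 191 and 198 to 206 CPM (1.54-fold and 1.69-fold, adjusted p = 0.00244 and 0.000726). Manba, a beta-mannosidase, was at 74.0 to 113, 128 to 142 and 123.2 to 137 CPM (1.40-fold and 1.33-fold, adjusted p = 0.0142 and 0.0287), and its call in resident libraries ended without resident library 2 or 3 (adjusted p = 0.0666 to 0.0879) or in the fit of 2 groups (0.057). Naglu, an enzyme of heparan sulfate breakdown, was at 74.0 to 175, 182 to 204 and 205 to 212 CPM. It was called in resident libraries (1.62-fold, adjusted p = 0.0365) and not in converted (1.53-fold, adjusted p = 0.0604). Its resident call ended without monocyte-derived library 3, converted library 3 or any 1 resident library (adjusted p = 0.0507 to 0.0829), with no filter (0.132) or in the fit of 2 groups (0.0683). It was called in converted libraries without monocyte-derived library 1 or 2 (adjusted p = 0.00724 to 0.0205), with DESeq2 (0.03), limma-voom (0.0337) or upper-quartile scaling (0.0491).

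The calls of lower glycosidases each ended in some alternative. Hexa, a subunit of the beta-hexosaminidases that act on GM2 ganglioside, was at 377, 817 and 720.2 CPM in monocyte-derived libraries, 422, 322 and 343 in converted and 371, 368 and 353 in resident. Converted library 1 overlapped monocyte-derived library 1. The decreases were 1.76-fold and 1.75-fold (edgeR adjusted p = 0.0179 and 0.0188). They were lost without monocyte-derived library 2 or 3, without converted library 2 or 3 (converted call) or without any 1 resident library (resident call), at adjusted p of 0.0512 to 0.0713, and with no filter (0.0969 and 0.0943). Of the exon bases of Hexa, 12.8% are shared with Tmem202 on the opposite strand. Neu1, a sialidase, was at 69.6 to 132, 51.4 to 73.2 and 72.8 to 79.7 CPM and was called lower in converted libraries (1.65-fold, adjusted p = 0.0161), a call that ended without converted library 2 (adjusted p = 0.0637) or with no filter (0.056). Without monocyte-derived library 1 it was called in resident libraries too (adjusted p = 0.00245). Idua, an iduronidase of heparan and dermatan sulfate, was at 20.8 to 30.4, 16.8 to 21.4 and 21.4 to 22.5 CPM. Its decrease in converted libraries was 1.35-fold (adjusted p = 0.0366) and ended without monocyte-derived library 2 or 3, when converted library 2 or 3 was dropped, or any 1 resident library (adjusted p = 0.0577 to 0.134) or in the fit of 2 groups (0.0956), while without monocyte-derived library 1 it was called in resident libraries (adjusted p = 0.018).

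Gusb, Fuca1 and Gla were called in neither comparison by the edgeR fit of all 9 libraries. Gusb, a beta-glucuronidase, was at 277 to 559 CPM in monocyte-derived libraries, 522 to 541 in converted and 440.3 to 467 in resident ones. It was called higher in converted libraries without monocyte-derived library 2 (edgeR adjusted p = 0.013). Fuca1, a fucosidase, was at 109 to 166, 169 to 189 and 179.8 to 191 CPM, above every monocyte-derived library in both groups, and was called in resident libraries without monocyte-derived library 2 or 3 (adjusted p = 0.0345 to 0.0372), with upper-quartile scaling (0.0336) and with no filter on low counts (0.039). Gla, the alpha-galactosidase of globotriaosylceramide, was at 41.2, 150.2 and 113 CPM in monocyte-derived libraries, 48.6, 61.7 and 70.9 in converted and 73.4, 67.5 and 70.4 in resident. Monocyte-derived library 1 was under all 6 converted and resident libraries and libraries 2 and 3 above them. Gla was called lower in both comparisons once library 1 was left out (log2 -1.12 and -0.90, edgeR adjusted p = 0.000192 and 0.000801, against 0.118 and 0.26 with all libraries).

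The 5 sulfatases, which remove sulfate groups from glycosaminoglycans and sulfatide and share an activating enzyme, were called in no direction but upwards. In converted libraries 4 of the 5 were called higher (Sgsh, Arsb, Ids, Galns), and in resident libraries 2 (Sgsh, Arsb). Sgsh (chr11:119343425-119355536), the sulfamidase of heparan sulfate, was at 7.31, 4.57 and 7.45 CPM in monocyte-derived libraries, 16.6, 16.3 and 16.5 in converted and 16.3, 15.3 and 17.0 in resident ones. All 6 converted and resident libraries were above the monocyte-derived ones and close to each other. The rises were 2.56-fold (log2 1.35 ± 0.18, edgeR adjusted p = 0.00015) and 2.51-fold (1.33 ± 0.18, adjusted p = 0.000172). Arsb, which acts on dermatan and chondroitin sulfate, was at 7.84 to 9.71, 14.8 to 17.6 and 11.7 to 12.5 CPM (1.93-fold and 1.43-fold, adjusted p = 0.000268 and 0.00978). For both genes the exons overlap genes on the opposite strand, Card14 for 21.6% of Sgsh's exon bases and Gm26527 and Gm47210 for 39.9% of Arsb's, so their reads may in part come from those genes.

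Ids, the iduronate sulfatase, had the highest CPM of the 5. Per kilobase Galns was above it in all groups, with a mean RPKM of 18.9, 25.6 and 24.2 against 16.6, 22.8 and 18.2 for Ids. Ids was at 78.2, 82.6 and 93.3 CPM in monocyte-derived libraries, 112, 105 and 132 in converted and 87.6, 101 and 90.1 in resident. The converted libraries lay above all others, and the resident ones overlapped the monocyte-derived. Ids was called in converted (1.37-fold, edgeR adjusted p = 0.00546) and not in resident libraries (1.10-fold, adjusted p = 0.325), and the direct difference between converted and resident did not pass (1.25-fold, adjusted p = 0.12). Galns, which acts on keratan sulfate, was at 37.0 to 63.4, 63.5 to 73.9 and 61.0 to 68.5 CPM. Its converted call (1.35-fold, adjusted p = 0.049) ended when any library but monocyte-derived library 2 was left out (adjusted p = 0.0651 to 0.139), and also with RLE scaling, a filter at 1 CPM, protein-coding genes alone or a fit of 2 groups (0.0503 to 0.0933). Without monocyte-derived library 2 it was called in resident libraries (adjusted p = 0.00635). Arsa, which acts on sulfatide, was at 32.2 to 45.0, 45.0 to 48.4 and 47.1 to 55.1 CPM and was called in neither, but was in resident libraries without monocyte-derived library 2 (adjusted p = 0.0252), with upper-quartile scaling (0.0277) or with no filter (0.0465).

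The sphingolipid genes were led by the 2 activator proteins, both lower in converted and resident cells. Prosaposin, the product of Psap, is cut into the saposins that present sphingolipids to their hydrolases, and Gm2a encodes the activator that lifts GM2 ganglioside out of the membrane for hexosaminidase. Psap (chr10:60277627-60302597) was at 6941, 11991 and 6875 CPM in monocyte-derived libraries, 4134, 4705 and 4428 in converted and 4465, 4155 and 4374 in resident. All 6 converted and resident libraries were under the lowest monocyte-derived one, and library 2 stood above its 2 partners. The decrease was 1.95-fold (log2 -0.96 ± 0.20, edgeR adjusted p = 0.00238) in converted and 1.99-fold (-0.99 ± 0.20, adjusted p = 0.00205) in resident cells. Gm2a (chr11:55098115-55113029) fell from 1125, 887 and 987 CPM to 387, 309 and 339 in converted and 328, 279 and 334 in resident libraries. The groups were far apart, with a log2 change of -1.53 ± 0.12 (2.90-fold lower, adjusted p = 5.57e-06) and -1.67 ± 0.12 (3.19-fold lower, adjusted p = 3.53e-06). Both genes kept their calls under every alternative, left-out libraries included.

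The hydrolases of the same lipids had smaller fold changes than Gm2a. Asah1, acid ceramidase, was at 445 to 552 CPM in monocyte-derived libraries, 428 to 471 in converted and 395 to 428 in resident ones and was called lower in resident (1.23-fold, edgeR adjusted p = 0.0218) and not in converted libraries (1.12-fold, adjusted p = 0.161). The resident call ended without monocyte-derived library 2 or 3 or resident library 2 or 3 (adjusted p = 0.0527 to 0.0842) or with upper-quartile scaling (0.0578), and without monocyte-derived library 1 it was called in converted libraries too (adjusted p = 0.0164). Galc, which degrades galactosylceramide, was at 25.98, 61.9 and 38.7 CPM in monocyte-derived libraries, 26.7, 26.9 and 30.4 in converted and 19.6, 25.9 and 20.02 in resident ones. It was called lower in resident (1.93-fold, adjusted p = 0.0146; 0.0551 to 0.0561 without resident library 1 or 3, and 0.0659 with no filter) and, without monocyte-derived library 1, in converted libraries (adjusted p = 0.00397, against 0.0912). Smpd1, acid sphingomyelinase, went the other way, at 26.7 to 44.6, 47.2 to 48.9 and 45.6 to 53.4 CPM. It was called higher in resident libraries (1.36-fold, adjusted p = 0.0413), a call that ended without any 1 library but monocyte-derived library 2 (adjusted p = 0.0553 to 0.125) or in the fit of 2 groups (0.0819). In converted libraries it was not called (1.32-fold, adjusted p = 0.06), and was without monocyte-derived library 2 (adjusted p = 0.00881), with limma-voom, with upper-quartile scaling or with no filter (0.0348 to 0.0457).

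NPC1 and NPC2 hand cholesterol out of the lysosome, NPC2 in the lumen and NPC1 in the membrane, and the pair was split. Npc1 was at 94.0, 102 and 83.3 CPM in monocyte-derived libraries, 43.6, 47.2 and 52.9 in converted and 51.8, 50.2 and 49.0 in resident ones. The converted and resident libraries held a lower range without overlap, 1.94-fold lower in converted (log2 -0.96 ± 0.10, edgeR adjusted p = 3.7e-05) and 1.85-fold lower in resident cells (-0.89 ± 0.10, adjusted p = 6.18e-05). Npc2 was at 357, 638 and 598 CPM in monocyte-derived libraries, 451, 451 and 422 in converted and 570.3, 482 and 529.6 in resident ones. The converted and resident values all lay between monocyte-derived library 1 and the other 2, and it was called in neither comparison (adjusted p = 0.252 and 0.969). Without monocyte-derived library 1 it was called lower in both (adjusted p = 0.000597 and 0.0365).

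Tpp1, Ppt1 and Cln3 are mutated in neuronal ceroid lipofuscinoses, storage diseases of childhood. They encode a peptidase, a palmitoyl-protein thioesterase and a membrane protein. Tpp1, the most abundant, was at 223, 392.4 and 338 CPM in monocyte-derived libraries, 263, 247 and 243 in converted and 254, 235 and 253 in resident ones, and was called only without monocyte-derived library 1, lower in both comparisons (edgeR adjusted p = 0.0003 and 0.000234). Ppt1 rose from 106 to 129 CPM in monocyte-derived libraries to 159 to 171 in converted and 147 to 154 in resident (1.36-fold and 1.26-fold, adjusted p = 0.00154 and 0.00749). Cln3 fell from 68.8 to 84.3 CPM to 47.2 to 57.0 in converted libraries and 54.8 to 58.4 in resident ones (1.43-fold and 1.32-fold, adjusted p = 0.00233 and 0.00958). For neither Ppt1 nor Cln3 did a converted or resident library overlap the monocyte-derived ones.

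**Figure D3:**
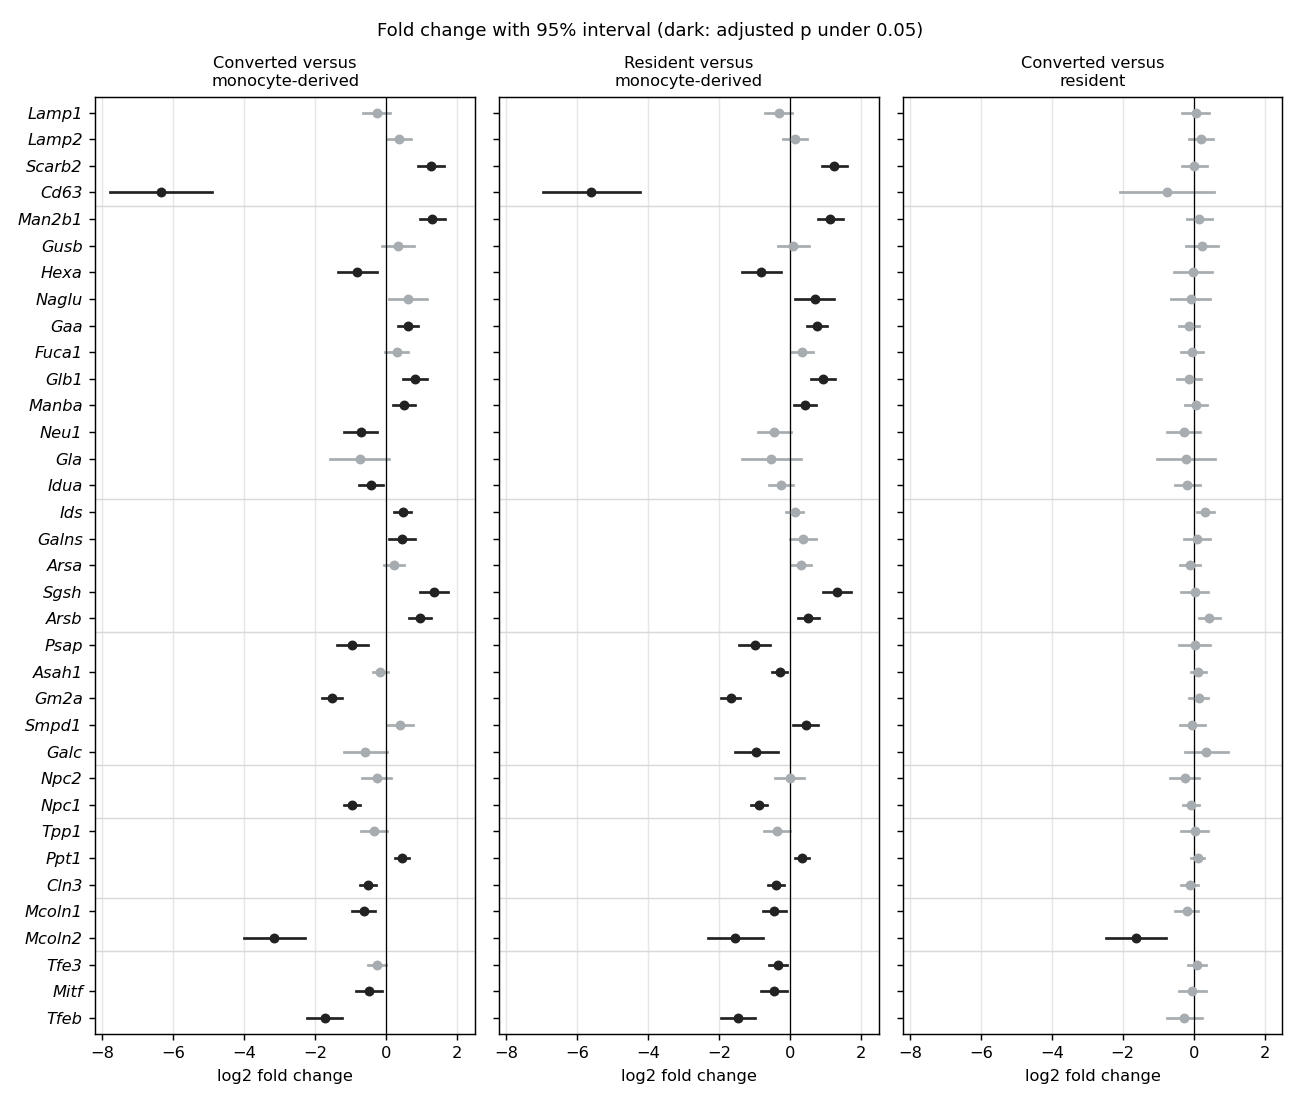
Log2 fold change of each tested member in the 3 comparisons (x axis, log2 units; points are edgeR estimates, bars 95% intervals, dark where the adjusted p was under 0.05), with lines between roles. Cd63 lies furthest from 0 against monocyte-derived libraries (-6.36 and -5.60), followed by Mcoln2 in the first panel (-3.16) and Gm2a in the second (-1.67), and in the right panel only Mcoln2 is dark.

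The mucolipins are cation channels that release calcium from lysosomes and endosomes. MCOLN1 is the broadly expressed form, and MCOLN2 is found mainly in immune cells. Mcoln2 was the only member called in all 3 comparisons. The gene (chr3:146149833-146195513) was at 15.5, 41.7 and 32.4 CPM in monocyte-derived libraries, 2.29, 2.94 and 4.84 in converted and 10.6, 9.23 and 10.96 in resident. No 2 groups overlapped. It was 8.92-fold lower in converted than in monocyte-derived libraries (log2 -3.16 ± 0.38, edgeR adjusted p = 0.000113) and 2.91-fold lower in resident (-1.54 ± 0.35, adjusted p = 0.00466). Converted libraries were 3.07-fold lower than resident ones (-1.62 ± 0.38, adjusted p = 0.0376). This last call ended without converted library 1 or 2 or any 1 resident library (adjusted p = 0.0824 to 0.134), with limma-voom and with no filter on low counts, and kept its direction throughout. The B cell markers, 1145 to 1485 CPM in resident and 77.4 to 185 in converted libraries, differ in the same direction. In monocyte-derived libraries, where Mcoln2 was highest, they were at 33.4 to 79.6 CPM. Other lists were lower in converted than in resident libraries too, NK cells at 1.59 to 2.42 against 14.8 to 23.9 CPM, T cells at 0.844 to 4.62 against 11.9 to 21.2, dendritic cells at 21.5 to 80.9 against 174 to 189, and mast cells at 0.498 to 1.63, with Kit at 0, against 4.50 to 7.29. In monocyte-derived libraries these 4 sums were 16.1 to 92.5, 1.27 to 8.16, 18.4 to 71.2 and 3.58 to 5.83 CPM, so that the NK list had the same order of group means as Mcoln2. Neutrophil markers were at 2.03 to 2.05 CPM in converted libraries and 1.42 to 2.92 in resident ones. The part of any of these in the difference of Mcoln2 was not tested.

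Mcoln1 was at 52.8, 78.1 and 75.9 CPM in monocyte-derived libraries, 39.6, 44.1 and 49.2 in converted and 51.6, 52.1 and 48.8 in resident ones, the latter just under the lowest monocyte-derived value. It was called lower in converted (1.56-fold, edgeR adjusted p = 0.0046) and in resident libraries (1.36-fold, adjusted p = 0.0285), and the resident call ended without monocyte-derived library 2 or 3 or any 1 resident library (adjusted p = 0.0666 to 0.101) or with upper-quartile scaling (0.0504). Mcoln3 was almost absent, at 0, 0.983 and 0.129 CPM in monocyte-derived libraries, 0 in all converted and 0.055, 0 and 0 in resident, and was not tested. Per kilobase, Mcoln2 made up 40.3, 54.4 and 49.4% of the mucolipin RNA in monocyte-derived libraries, 11.7, 13.3 and 18.4% in converted and 31.96, 28.9 and 34.1% in resident, and Mcoln1 nearly all of the rest.

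Tfeb and Mitf were called lower in converted and resident cells and Tfe3 in resident cells, with the largest fold for Tfeb. Tfeb (chr17:47737030-47792419) was at 25.3, 46.3 and 34.8 CPM in monocyte-derived libraries, 12.8, 8.30 and 10.7 in converted and 12.7, 12.7 and 13.02 in resident. The highest converted or resident library held 13.02 CPM and the lowest monocyte-derived one 25.3. The decrease was 3.34-fold in converted (log2 -1.74 ± 0.22, edgeR adjusted p = 0.000131) and 2.77-fold in resident cells (-1.47 ± 0.22, adjusted p = 0.000361), and held under every alternative. Tfe3 was at 153, 121 and 115 CPM in monocyte-derived libraries, 116, 98.4 and 111 in converted and 99.7, 105 and 99.6 in resident ones. It was called in resident (1.28-fold lower, adjusted p = 0.0257) and not in converted libraries (1.20-fold lower, adjusted p = 0.0809). The resident call ended without monocyte-derived library 1 or any 1 resident library (adjusted p = 0.0537 to 0.0834), and without monocyte-derived library 3 Tfe3 was called in converted libraries (adjusted p = 0.0348).

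Mitf was at 29.0, 43.4 and 28.3 CPM in monocyte-derived libraries, 22.7, 22.2 and 26.8 in converted and 25.0, 25.4 and 23.1 in resident ones, with monocyte-derived library 2 above its 2 partners. It was called lower in both (1.41-fold and 1.37-fold, edgeR adjusted p = 0.0306 and 0.0418). Both calls ended when monocyte-derived library 2 or when converted library 1 or 2 was left out, and the resident call also without converted library 3 or any 1 resident library (adjusted p = 0.0505 to 0.162). With upper-quartile scaling, Tfe3 and Mitf also missed the threshold in resident libraries (0.0671 and 0.0724), and in fits of 2 groups Mitf missed it in both (0.0811 and 0.0714). Per kilobase, Tfe3 was the most abundant of these 3 MiT factors in every library. It made up 46.3 to 64.4% of their summed RPKM in monocyte-derived libraries, 65.8 to 67.8% in converted and 63.2 to 64.2% in resident ones. Their relative Tfec, counted here with the genes of nutrient signalling, is not in this sum. The share of Tfeb was 17.4, 28.9 and 26.6% in monocyte-derived libraries and 9.35 to 13.7% in the 6 others.

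**Figure D4:**
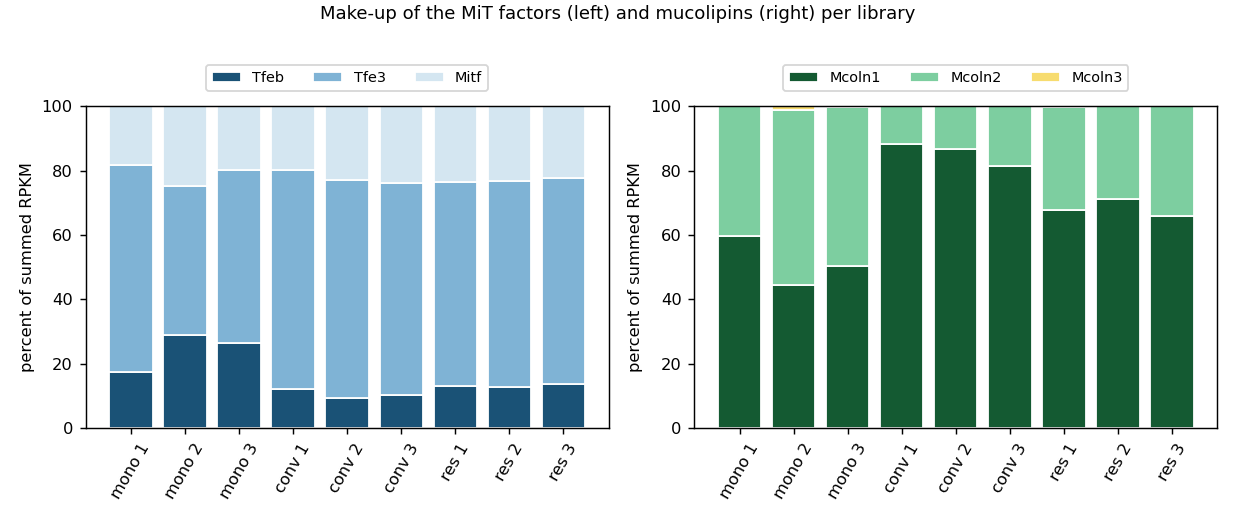
Make-up of the MiT factors Tfeb, Tfe3 and Mitf (left) and the mucolipins (right) in each library, as percent of the summed RPKM of the 3 genes shown (y axis), with libraries on the x axis and colours for genes. The Tfeb share is 17.4% or more in the 3 monocyte-derived libraries and at most 13.7% elsewhere, and the Mcoln2 share is lowest in the converted libraries.

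Between converted and resident libraries few genes were called, 6.07% of all genes tested and 1 of the 35 members. Of the 34 members not called, 32 had a 95% interval of the log2 change within 1 of 0, all but Cd63 and Gla, and 19 within 0.5. Such intervals were not counted over all genes, so they do not set the members apart. The libraries of the 2 groups did not overlap for 12 of the 35, beside 37.3% of all genes. Ids and Arsb had an unadjusted p under 0.05, with levels 1.25-fold and 1.35-fold higher in converted libraries (edgeR adjusted p = 0.12 and 0.0931). In a fit of these 2 groups alone, 16.2% of all genes passed and 4 members did: Arsb and Gusb higher in converted libraries, Npc2 and Mcoln2 lower. A p that missed the threshold does not show that the levels were the same: for Cd63 the interval of the log2 change ran from -2.09 to 0.58.

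The monocyte-derived libraries differed among themselves more than the other groups did, and in the same order for most members. Library 1 held the lowest of the 3 levels for 29 of the 35 members tested, and library 2 the highest for 27. Over all genes tested, library 1 was lowest for 38.7% and library 2 highest for 31.6%. The median coefficient of variation of the members was 24.2% in monocyte-derived libraries, 8.17% in converted and 4.09% in resident ones, and that of all genes tested was 17.3%, 10.7% and 7.81%. The members that spread most were Cd63, Gla and Mcoln2. Sgsh and Gm2a ran against the order, with their lowest value in library 2. The recruited monocyte markers ran opposite to most members, with sums of 1577, 594 and 821 CPM in libraries 1 to 3 (Ccr2 alone 1345, 464 and 662), and the sum of the 7 macrophage markers ran with them, at 3770, 6366 and 5218 CPM. Within that list Lyz2, Cd68, Adgre1 and Mertk were lowest in library 1, and Csf1r, Itgam and Fcgr1 highest there. The part of either in the spread was not tested. Without library 1, 28 members were called in converted libraries in place of 22 and 27 in resident in place of 23. Without resident library 1, 2 or 3, 16, 15 or 14 were called in resident libraries.

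Of 135 other genes of the lysosome, in 6 lists, 85 were called in converted and 81 in resident libraries against monocyte-derived, beside 50.7% of all genes in each. Of 30 other hydrolases, 9 were higher and 11 lower in converted libraries and 7 and 10 in resident. Cpq, a carboxypeptidase, rose from 8.21, 24.9 and 21.9 CPM to 64.1 to 89.8 in converted libraries and 85.0 to 88.8 in resident ones (4.42-fold and 4.77-fold, edgeR adjusted p = 0.000512 and 0.000387). Arsg, a sulfatase, rose 3.81-fold and 4.21-fold. Plbd1, a phospholipase B-like protein, fell furthest, from 646, 233 and 445 CPM to 3.04, 4.78 and 3.49 in converted and 25.1, 25.2 and 34.5 in resident libraries, and differed between these 2 groups as well (7.49-fold, adjusted p = 0.00348). Acp5, the tartrate-resistant acid phosphatase of osteoclasts, fell from 70.4, 326 and 265 CPM to 7.38 to 10.2 and 19.2 to 26.4.

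Of 28 other membrane proteins, 5 were higher and 11 lower in converted libraries and 7 and 12 in resident. Laptm5, a lysosomal protein of blood cells, rose from 1460, 1594 and 1554 CPM to 4045 to 4648 in converted libraries and 3865 to 4269 in resident ones (2.79-fold and 2.64-fold, edgeR adjusted p = 1.24e-06 and 1.94e-06), and Laptm4b rose 2.95-fold and 2.77-fold. Slc15a3, a peptide and histidine transporter, fell 13.9-fold and 11.7-fold, and Slc38a9, the arginine sensor that signals to mTORC1, 3.48-fold and 3.38-fold. No gene of the V-ATPase, the proton pump that acidifies the lysosome, was called higher: 12 of 18 were lower in converted libraries and 10 in resident. Its osteoclast-type subunit Atp6v0d2 was at 126, 762 and 473 CPM in monocyte-derived libraries, 0.525 to 1.01 in converted and 0.892 to 2.30 in resident. Its log2 changes were -9.06 ± 0.78 and -7.97 ± 0.72 (adjusted p = 1.41e-05 and 1.94e-05), and -8.45 and -7.35 without monocyte-derived library 2. Atp6v0a1, another subunit, fell 3.31-fold and 3.66-fold.

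Of 20 genes of sorting and fusion, 2 were higher and 12 lower in converted libraries and 2 and 9 in resident. Sort1, a sorting receptor, rose 2.91-fold and 2.52-fold, and Sumf1, the enzyme that activates all sulfatases, fell 1.86-fold and 1.89-fold (edgeR adjusted p = 0.000126 and 0.000113), from 85.2 to 98.2 CPM to 41.6 to 56.7 and 46.4 to 50.3. Gga2, an adaptor, fell 1.95-fold in converted libraries (adjusted p = 0.00439, and 0.491 in resident), a difference between converted and resident libraries that was not called (adjusted p = 0.0701). Gnptab, which makes the mannose 6-phosphate tag that routes hydrolases to lysosomes, fell 1.48-fold and 2.02-fold. Vps39, of the HOPS tethering complex, was 1.29-fold higher in both (adjusted p = 0.0113 and 0.012; 0.0539 in resident libraries without resident library 3).

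Of 16 genes of nutrient signalling to the MiT factors, 1 was higher and 8 lower in converted libraries and 2 and 8 in resident. Fnip2, a partner of folliculin, fell from 36.6 to 61.3 CPM to 9.42 to 14.6 in converted libraries and 11.4 to 13.7 in resident ones (4.10-fold and 3.98-fold, edgeR adjusted p = 3.63e-05 and 4.1e-05), and Rraga, a Rag GTPase, fell 1.68-fold and 1.60-fold. Flcn, folliculin, was called higher in resident libraries (1.27-fold, adjusted p = 0.0352; 0.0582 to 0.139 without monocyte-derived library 1 or 3 or resident library 1 or 3) and not in converted (adjusted p = 0.662), and its difference between these groups did not pass (adjusted p = 0.0774). Lamtor2, a Ragulator subunit, rose 1.31-fold and 1.37-fold (adjusted p = 0.039 and 0.0206). Both Lamtor2 calls ended without monocyte-derived library 3 or any 1 resident library, and the converted call also when monocyte-derived library 1 or when converted library 1 or 3 was left out. Of 23 autophagy genes, 8 were higher and 6 lower in converted libraries and 7 and 7 in resident. Wipi1, which acts on forming autophagosomes, rose from 11.01 to 13.4 CPM to 42.1 to 46.5 and 41.0 to 42.8 (3.58-fold and 3.36-fold, adjusted p = 4.77e-07 and 7.61e-07), and Optn, an autophagy receptor, rose 2.40-fold and 2.88-fold (adjusted p = 0.0206 and 0.00827; the converted call ended at 0.051 to 0.0686 when library 3 of either group was left out, with no filter or in the fit of 2 groups). Gabarapl1 fell 3.46-fold and 3.42-fold. Gpnmb, a lysosomal glycoprotein and MiT target, was at 122.7, 2067 and 982 CPM in monocyte-derived libraries and at most at 3.54 CPM in the 6 others.

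Between converted and resident libraries 5 of these 135 genes were called, all named here, beside 6.07% of all genes tested. Plbd1 was lower in converted libraries under every alternative. Rnaset2a (1.42-fold lower), Mfsd1 (1.31-fold higher) and Gnptab (1.37-fold higher) were called at adjusted p of 0.0326, 0.0251 and 0.0445 by edgeR, and each lost its call when single converted or resident libraries were left out (adjusted p = 0.0733 to 0.174). The call of Gnptab also ended with limma-voom, upper-quartile scaling, a filter at 1 CPM or protein-coding genes alone (0.0502 to 0.0623). Rragb, named after its value was seen because its level was too low for the naming rule, had 0.0498, 0.105 and 0 CPM in converted libraries and 0.495, 0.892 and 1.03 in resident (adjusted p = 0.03, and 0.0584 to 0.12 without any 1 of these 6 libraries).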

How the data were processed

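RNA-seq libraries were made with a low-input kit from sorted cells, per the labels' protocols. The authors deposited 1 table of raw read counts per gene and library, and the reads were aligned with TopHat2 2.1.0 to GRCm38 and counted with HTSeq, per the submitters' processing notes. For annotation, strand setting and multi-mapped reads the settings were not given in the sources used here. Of 47729 gene identifiers, 47310 matched GENCODE M21, which gave symbols, positions and exon lengths. The summary lines of each file were left out; reads in no feature were 4.02 to 5.66% and ambiguous reads 4.47 to 4.68%.

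Counts were scaled by TMM, filtered with filterByExpr (minimum count 10, minimum total 15) and tested with edgeR 4.0.16 (R 4.3.3) in 1 quasi-likelihood fit of 3 groups with 6 residual degrees of freedom. Standard errors are the log2 change over the root of F. The script was tested on simulated data. Alternatives were DESeq2 1.42.0, limma-voom (limma 3.58.1), RLE and upper-quartile scaling, 2 other filters, a fit of protein-coding genes, fits of 2 groups, a replicate block and leaving out each library. The tested member with the fewest reads in a library was Mcoln2, with 46. Members given library by library by rule were, in each role, the one with the highest mean CPM and those called at 2-fold or more. All members among the mucolipins and MiT factors were added. Hexa, Gla, Galc and Npc1 were given library by library outside this rule. Other genes named had at least 10 CPM and the largest changes in their list. The members, lists and rules were chosen with earlier results of these data known.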

Additional observations from a re-analysis of the deposited data

How the results depend on the processing

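Under 18 alternatives, 17 of the 22 member calls in converted against monocyte-derived libraries and 14 of the 23 in resident against monocyte-derived held each time, and no called value changed direction. Leaving out 1 library gave 14 to 27 members called in resident against monocyte-derived libraries, 7 to 18 of them lower. Between converted and resident libraries, where 803 genes, 1 member and 5 of the other lysosomal genes were called, the counts moved most. DESeq2 called 1364 genes, 2 members (1 higher, Arsb) and 9 of the other lysosomal genes. A fit of 2 groups called 2067 genes, 4 members (2 higher, 2 lower) and 21 of the other lysosomal genes. Both limma-voom and no filter on low counts gave 0 members, so 0 lower, and a filter at 1 CPM gave 3 of the other lysosomal genes. Leaving out 1 library gave 245 to 1628 genes, 0 to 2 members, 0 to 2 of them lower, and 1 to 14 of the other lysosomal genes. Of the genes called there by edgeR, 240 were higher in converted libraries and 563 lower (29.9% higher), against 133 and 606 (18.0%) with upper-quartile scaling. The summed level of the members in converted libraries was 12219 CPM on raw totals and 12456 on scaled ones. The cause of these shifts was not tested.

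A replicate block in the fit left 20, 22 and 1 members called in the 3 comparisons, 530 genes between converted and resident libraries, and 1 of the other lysosomal genes there. Among the members it ended the calls of Idua, Galns and Mitf in converted and of Mitf in resident against monocyte-derived libraries (adjusted p = 0.07, 0.0508, 0.0514 and 0.064), and Naglu was called in converted libraries (0.0352). Among the other lysosomal genes named, it ended the calls of Rnaset2a, Mfsd1, Gnptab and Rragb between converted and resident libraries, of Lamtor2 in converted and of Flcn in resident against monocyte-derived libraries. Libraries with the same number did not deviate together (r across genes of -0.0939 to 0.0651), so the numbers were not taken as pairs.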
